A study of Caenorhabditis elegans with 8 samples.

Results

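The lipl- and lips- genes encode the lysosomal-type lipases and the lipase-related proteins of Caenorhabditis elegans. They were chosen as all genes on the array whose symbol begins with lipl- or lips-, and 23 genes of the 19441 on the array met that rule, 8 of them lipl- and 15 lips-. They are read by 24 probes, each for its own gene identifier, because lips-7 has 2 identifiers. Its C09E8.2a probe lists 1 transcript and its C09E8.2b probe lists that transcript as well, so the 2 readings are not separate. The family was picked with results of these arrays in view, since lipl-3 was known to be low and lips-11 high in some genotypes. The levels of these 2 genes are therefore given as a description without a test, and the main counts of the family are also given without them. Where a count includes them, their share of it follows from the choice of the family.

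Lipases release fatty acids from stored fat, and in the worm most fat is stored in the intestine and the epidermis. One route runs through the cytosol, where the adipose triglyceride lipase homologue ATGL-1 acts at the lipid droplet, and another through the lysosome, where acid lipases of the LIPL family act. Several lipl- genes are known to rise in fasting, and the transcription factors HLH-30, a TFEB homologue, and MXL-3 activate and repress them, respectively. LIPL-4 is known for a signal from the lysosome to the nucleus that is carried by the lipid-binding protein LBP-8 to the nuclear receptors NHR-49 and NHR-80. The lips- genes are named for their likeness to lipases, and most have no assigned substrate.

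RNA of whole animals was measured on 8 one-colour arrays, 2 for each of 4 genotypes in the N2 background. The genotypes combine deletions of the heterochromatin protein 1 homologues hpl-1(tm1624) and hpl-2(tm1489) and of the linker histone H1 variant his-24(ok1024). Double mutants were labelled hpl-1 his-24, hpl-1; hpl-2 or hpl-2; his-24, and the triple mutant was labelled hpl-2; hpl-1 his-24. Each sample pooled 80 to 100 animals raised at 21 °C, given as L4 larvae by the study and as L4 with young adults by the labels. Neither wild type nor any single mutant was analysed here, so every difference is between mutants, and 3 of the 4 genotypes carry an hpl-2 deletion by label. Levels are log2 signals relative to the 75th percentile of the same array, so 0 is the level of a bright probe, each unit is a doubling, and levels of different probes are not compared with each other. Since whole animals were used, fewer cells that express a gene and less RNA per cell cannot be told apart.

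Some arrays and labels stood apart. The his-24 probe was above background on both hpl-1; hpl-2 arrays and on none of the 6 arrays labelled his-24. The hpl-1 probe was not above background on the hpl-1; hpl-2 arrays (mean -8.92), but it was in the 4 libraries labelled hpl-1 his-24 (mean -0.33) and hpl-2; hpl-1 his-24 (mean -0.57), which carry the same hpl-1 allele by their labels, as it was in hpl-2; his-24 (mean -0.57). These values go against the hpl-1 label of those 4 arrays, so hpl-1 his-24 and the triple mutant are named here as the libraries labelled so, and no difference below is assigned to hpl-1. The hpl-2 probe was above background on all 8 arrays and does not check that label. The 2 hpl-2; his-24 arrays were on a slide and scan day of their own, which cannot be told apart from their genotype. They also differed more from each other, with a standard deviation (SD) of 0.53 for the difference between replicates over all genes, against 0.24 to 0.25 in the other genotypes.

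Of the 24 lipase identifiers, 16 were well above background on all 8 arrays and 5 on some. The lipl-7, lipl-8 and lips-2 probes were above background on no array and were not tested. The probe for lips-11 also lists the transcript of its neighbour lips-12, which has no other probe, so its level may be that of either gene. According to the reference annotation lips-11, lips-12 and lips-13 follow one another on chromosome II with no gene between them, whereas 7 of the 8 lipl- genes are spread over chromosome V. lips-14 and lips-16 are annotated as pseudogenes.

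The tested lipase genes were mostly highest in hpl-1 his-24, the one genotype whose label names no hpl-2 deletion. This held for 15 of the 21 identifiers (71.4%), whereas 26.6% of all genes tested were highest there. Without lipl-3 and lips-11 it held for 14 of the other 19. Both hpl-1 his-24 arrays lay above the other 6 arrays for 14 of 21 lipase identifiers, against 19.1% of all genes, and below them for 1, lips-11, against 22.5%. Among the other 19 these counts were 13 and 0. The lowest mean of the 4 was in hpl-2; his-24 for 10 identifiers (47.6%, against 33.8% of all genes), neither of the named 2 among them. The 3 comparisons with hpl-1 his-24 use the same 2 arrays, so a low or high value there enters all of them.

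A gene was called when the test of limma gave an adjusted p below 0.05, with Benjamini-Hochberg adjustment over all 17086 identifiers tested, and a log2 fold change beyond 1.5. Against hpl-1 his-24, 4 lipase identifiers were called lower and 1 higher in hpl-1; hpl-2 animals, 10 lower and 2 higher in hpl-2; his-24, and 5 lower and 1 higher in the triple mutant. Of all genes tested, 3.25%, 9.72% and 2.62% were called lower in these comparisons and 4.92%, 6.82% and 5.59% higher, or 8.16%, 16.5% and 8.21% either way. With normexp background correction and in the deposited log2 table, the calls in hpl-1; hpl-2 were 6 lower and 0 higher. Without lipl-3 and lips-11, the calls among the other 19 identifiers were 3 lower and 0 higher, 9 lower and 1 higher, and 4 lower and 0 higher, respectively. The median log2 fold change of the 21 identifiers was -1.01 in hpl-1; hpl-2 animals, -1.79 in hpl-2; his-24 and -0.74 in the triple mutant, where the medians of all genes were between 0.03 and 0.07.

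**Figure D1:**
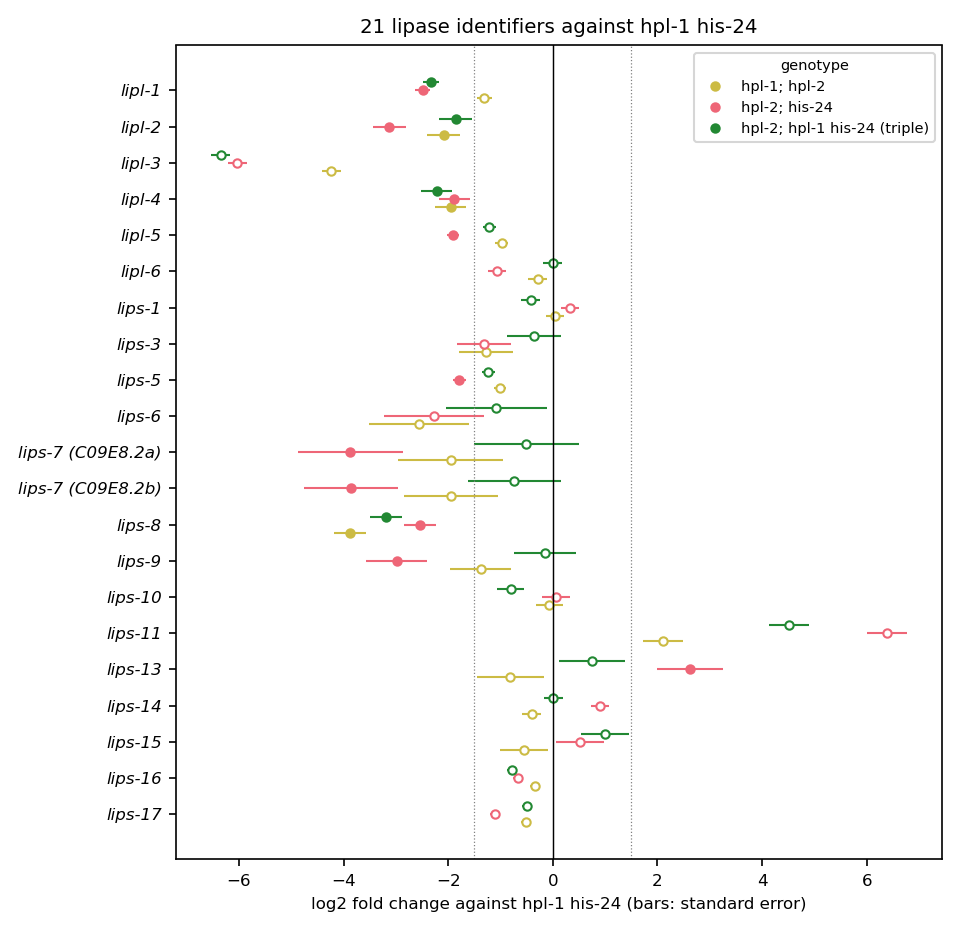
Log2 fold change of the 21 tested lipase identifiers in the other 3 genotypes against hpl-1 his-24 (horizontal axis), with standard errors as bars; filled points were called, dotted lines mark a change of 1.5, and lipl-3 and lips-11 are drawn open because no test is given for them. The lipl- genes lie at or left of 0, down to -6.35 for lipl-3, whereas lips-11 lies furthest to the right, at 6.391 in hpl-2; his-24.

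Most lipl- genes were lower in the 3 genotypes that carry an hpl-2 deletion by label. All 6 tested lipl- genes had a negative fold change in each of the 3 comparisons with hpl-1 his-24, with medians of -1.63 in hpl-1; hpl-2 animals, -2.20 in hpl-2; his-24 and -2.04 in the triple mutant. Without lipl-3 these medians were -1.31, -1.91 and -1.85. Calls were made for 2, 4 and 3 of the other 5 genes, all lower, where 3.25%, 9.72% and 2.62% of all genes were called lower.

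lipl-3, one of the fasting-responsive lysosomal lipases, had the widest range of the lipl- genes. Its level was 1.496 and 1.533 on the 2 hpl-1 his-24 arrays, -2.70 and -2.73 in hpl-1; hpl-2 animals, -4.31 and -4.72 in hpl-2; his-24, and -5.04 and -4.62 in the triple mutant. The hpl-1 his-24 arrays were far above all others, hpl-1; hpl-2 lay between, and the arrays of hpl-2; his-24 and the triple mutant overlapped. Against hpl-1 his-24 these levels correspond to log2 differences of -4.23, -6.03 and -6.35. The triple mutant lay 2.11 below hpl-1; hpl-2 on the same scale.

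lipl-1, another lipase of the fasting response, ranked the genotypes in much the same order. Its level was 2.47 and 2.53 in hpl-1 his-24, 1.14 and 1.24 in hpl-1; hpl-2 animals, -0.20 and 0.22 in hpl-2; his-24, and 0.12 and 0.22 in the triple mutant. Again only hpl-2; his-24 and the triple mutant overlapped. Against hpl-1 his-24 it fell by 2.33 ± 0.15 (SE) in the triple mutant (limma, adjusted p = 8.02e-05) and by 2.49 ± 0.15 in hpl-2; his-24 animals (adjusted p = 3.21e-05). In hpl-1; hpl-2 the log2 difference of -1.31 ± 0.15 passed the p threshold (adjusted p = 0.000822) but not that on the fold. The triple mutant was also lower than hpl-1; hpl-2, by a log2 difference of -1.02 ± 0.15 (adjusted p = 0.00485), again short of the fold threshold.

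lipl-2 differed from this order. Its level was 2.81 and 2.90 in hpl-1 his-24, 0.69 and 0.84 in hpl-1; hpl-2 animals, -0.80 and 0.26 in hpl-2; his-24, and 0.89 and 1.11 in the triple mutant. It was called lower than hpl-1 his-24 in each of the other genotypes, by 2.09 ± 0.32 in hpl-1; hpl-2 animals (adjusted p = 0.0029), 3.13 ± 0.32 in hpl-2; his-24 animals (adjusted p = 0.000289) and 1.85 ± 0.32 in the triple mutant (adjusted p = 0.00454). Between hpl-1; hpl-2 animals and the triple mutant it differed by 0.24 ± 0.32 (adjusted p = 0.612), with a 95% interval of -0.52 to 0.99.

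lipl-4, whose overexpression is known to lengthen worm lifespan, was highest in hpl-1 his-24. Its level was -2.18 and -2.06 in hpl-1 his-24, -4.22 and -3.92 in hpl-1; hpl-2 animals, -4.49 and -3.53 in hpl-2; his-24, and -4.29 and -4.40 in the triple mutant. Only the hpl-1 his-24 arrays stood apart. Against them it was lower by 1.95 ± 0.30 (adjusted p = 0.00299), 1.89 ± 0.30 (adjusted p = 0.00187) and 2.22 ± 0.30 (adjusted p = 0.00168), respectively. Without replicate 1 of hpl-2; his-24, the difference in that genotype was -1.41, which is short of the fold threshold.

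lipl-5, also of the fasting response, changed less. Its level was 5.61 and 5.57 in hpl-1 his-24, 4.48 and 4.75 in hpl-1; hpl-2 animals, 3.72 and 3.64 in hpl-2; his-24, and 4.46 and 4.30 in the triple mutant. Here hpl-1; hpl-2 animals and the triple mutant lay close together and hpl-2; his-24 was lowest. It was called lower in hpl-2; his-24, by 1.91 ± 0.12 (adjusted p = 4.17e-05). The differences of -0.98 ± 0.12 in hpl-1; hpl-2 animals (adjusted p = 0.00122) and -1.21 ± 0.12 in the triple mutant (adjusted p = 0.000496) passed on p alone.

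lipl-6 was not called in any comparison, and its 8 levels ran from -5.38 to -3.95. It was lowest in hpl-2; his-24, where the difference from hpl-1 his-24 was -1.07 ± 0.18 (adjusted p = 0.00237). Of the members, lipl-1, lipl-4 and lips-16 are on the study's own list of genes with lower expression, which was chosen on arrays of the same experiment, so their direction here is not independent evidence.

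**Figure D2:**
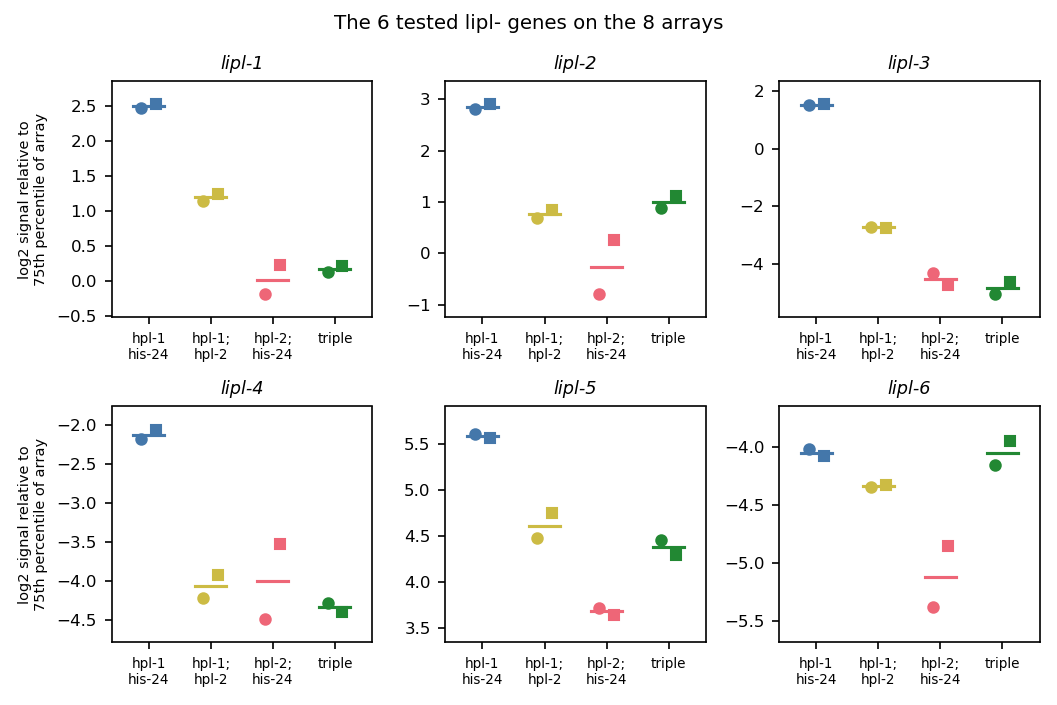
Log2 level relative to the array's 75th percentile (vertical axis, scaled to each gene) of the 6 tested lipl- genes in each genotype; circles are replicate 1, squares replicate 2 and lines the means. hpl-1 his-24 is above the other 6 arrays for lipl-1 to lipl-5, and lipl-3 runs from 1.533 down to -5.04.

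The lips- genes did not move as a block. Of the 15 tested identifiers, 1 was called lower and 1 higher in hpl-1; hpl-2 than in hpl-1 his-24, 5 lower and 2 higher in hpl-2; his-24, and 1 lower and 1 higher in the triple mutant. Without lips-11 the higher calls were 0, 1 and 0, and the lower calls were the same 1, 5 and 1 of 14. The median log2 fold changes of the 15 were -0.81, -1.11 and -0.50, respectively.

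lips-11 ran opposite to the lipl- genes. Its probe gave -5.75 and -5.44 in hpl-1 his-24, -3.48 and -3.52 in hpl-1; hpl-2 animals, 1.37 and 0.22 in hpl-2; his-24, and -0.77 and -1.38 in the triple mutant. No 2 genotypes overlapped, and hpl-2; his-24 was highest. Against hpl-1 his-24 the log2 differences were 2.102, 6.391 and 4.52, respectively, the last being 2.42 above hpl-1; hpl-2.

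lips-13, which lies beside lips-11 and lips-12, was also high in hpl-2; his-24. Its level was -6.22 and -5.99 in hpl-1 his-24, -6.78 and -7.05 in hpl-1; hpl-2 animals, -2.37 and -4.60 in hpl-2; his-24, and -5.36 on both arrays of the triple mutant. The probe was not well above background in hpl-1; hpl-2 animals, and the 2 hpl-2; his-24 arrays were 2.23 apart on the log2 scale. It was called higher in hpl-2; his-24 than in the hpl-1 his-24 animals, with a difference of 2.62 ± 0.63 (adjusted p = 0.0109), and at least 8.87-fold higher than in hpl-1; hpl-2 animals (adjusted p = 0.00578). Without replicate 1 of hpl-2; his-24 these log2 differences were 1.51 and, as fitted, 2.32, both still called, and without replicate 1 of hpl-1 his-24 the former call was lost (2.504, adjusted p = 0.0534). The triple mutant was called lower than hpl-2; his-24, by 1.88 ± 0.63 (adjusted p = 0.0466), but 7 of the 8 fits that left out 1 array lost this call, and without replicate 1 of hpl-2; his-24 the difference was -0.76.

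lips-8 was high in hpl-1 his-24 alone. Its level was -4.42 and -4.44 there, -8.57 and -8.06 in hpl-1; hpl-2 animals, -7.07 and -6.88 in hpl-2; his-24, and -8.07 and -7.16 in the triple mutant. Neither hpl-1; hpl-2 array was well above background, and hpl-1 his-24 was at least 4.61-fold higher (adjusted p = 0.000177). The fall was 2.54 ± 0.31 in hpl-2; his-24 animals (adjusted p = 0.000611) and 3.19 ± 0.31 in the triple mutant (adjusted p = 0.000424), where 1 of the 2 arrays was above background. In the deposited log2 values, which have no background subtraction, the differences were smaller, at -1.74 in hpl-1; hpl-2 animals, -1.60 in the triple mutant and -1.26 in hpl-2; his-24, the last short of the fold threshold.

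lips-5 was lowest in hpl-2; his-24. Its level was -3.19 and -2.98 in hpl-1 his-24, -4.03 and -4.16 in hpl-1; hpl-2 animals, -4.83 and -4.92 in hpl-2; his-24, and -4.42 and -4.22 in the triple mutant, with no overlap between any of the genotypes. The call was made for hpl-2; his-24 animals against hpl-1 his-24, where it fell by 1.79 ± 0.12 (adjusted p = 5.91e-05). The differences of -1.01 ± 0.12 in hpl-1; hpl-2 animals (adjusted p = 0.00116) and -1.24 ± 0.12 in the triple mutant (adjusted p = 5e-04) passed on p alone.

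lips-7 and lips-9 had their second highest mean in the triple mutant, below that in hpl-1 his-24. For lips-9 the levels were -1.54 and -1.36 in hpl-1 his-24, -2.88 and -2.79 in hpl-1; hpl-2 animals, -5.47 and -3.40 in hpl-2; his-24, and -1.57 and -1.63 in the triple mutant. The C09E8.2b probe of lips-7 gave -1.92 and -1.71, -3.73 and -3.80, -7.26 and -4.08, and -2.55 on both arrays, in the same order. The C09E8.2a probe gave -3.14 and -3.19, -5.10 and -5.14, -8.83 and -5.25, and -3.72 and -3.63. Both lips-7 probes, which share a transcript, thus ranked the 4 genotypes alike, and for both genes replicate 1 of hpl-2; his-24 lay over 2 log2 units below replicate 2.

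The triple mutant was called higher than hpl-2; his-24 for lips-9, by 2.84 ± 0.59 (adjusted p = 0.0082), and for lips-7, by 3.12 ± 0.89 with the C09E8.2b probe (adjusted p = 0.0266) and 3.36 ± 1.00 with the C09E8.2a probe (adjusted p = 0.0307). Without replicate 1 of hpl-2; his-24 these differences were 1.80, 1.53 and 1.57, respectively. Against hpl-1 his-24 the level in hpl-2; his-24 was lower by 2.99 ± 0.59 for lips-9 (adjusted p = 0.0047), 3.86 ± 0.89 for C09E8.2b (adjusted p = 0.00909) and 3.87 ± 1.00 for C09E8.2a (adjusted p = 0.0141), and without that array the differences were -1.95, -2.27 and -2.08. The fits that left out 1 array lost the call between hpl-2; his-24 and the triple mutant in 6 of 8 cases for C09E8.2a and in 4 of 8 for C09E8.2b, and in 0 of 8 for lips-9. The call of C09E8.2a in hpl-2; his-24 against the hpl-1 his-24 level was lost without either hpl-1 his-24 array (adjusted p = 0.0582 and 0.0593), and this probe was above background on 1 of the 2 hpl-2; his-24 arrays.

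**Figure D3:**
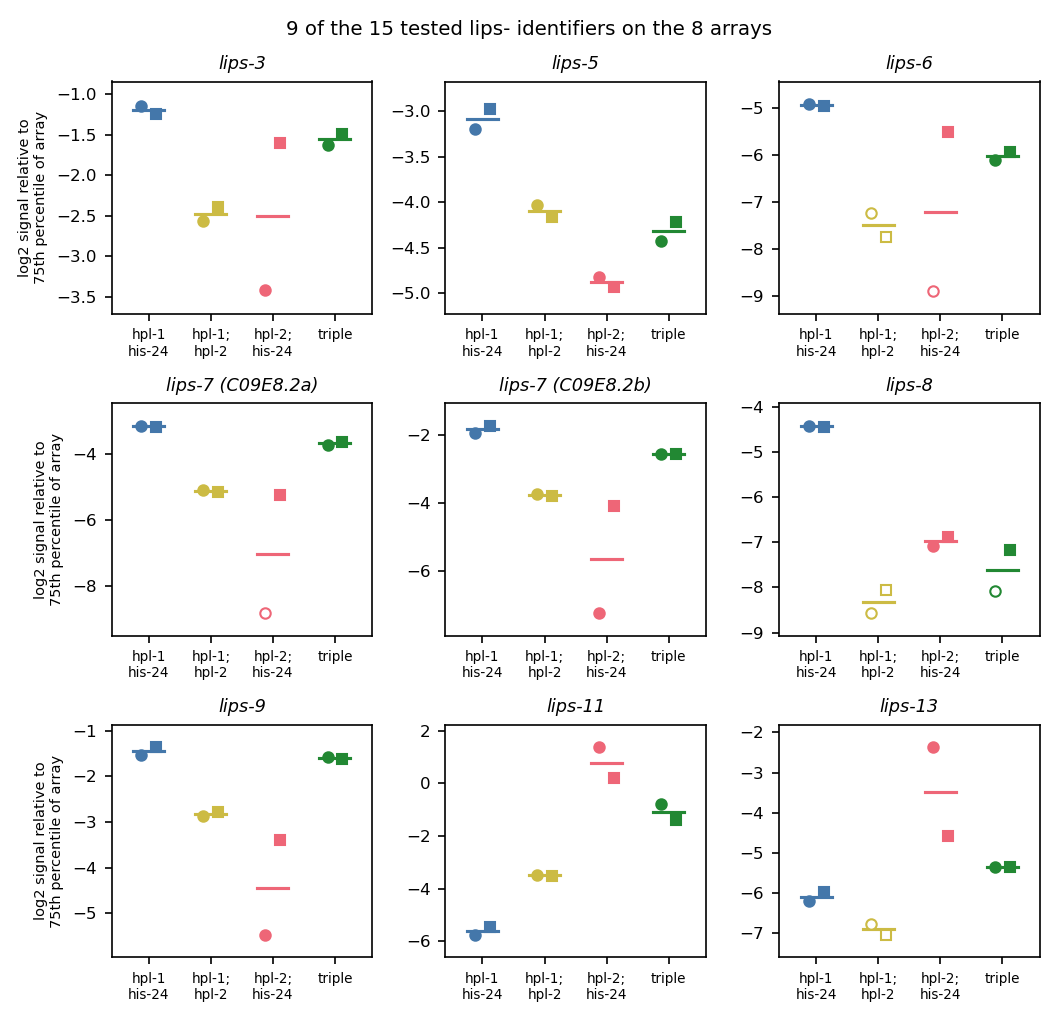
Log2 level relative to the array's 75th percentile (vertical axis, scaled to each probe) of 9 lips- identifiers in each genotype; circles are replicate 1, squares replicate 2, lines the means, and open symbols arrays on which the probe was not well above background. lips-11 rises from -5.75 in hpl-1 his-24 to 1.37 in hpl-2; his-24, and the 2 hpl-2; his-24 arrays lie far apart for lips-3, lips-6, lips-7, lips-9 and lips-13.

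Arrays of hpl-1; hpl-2 animals were on the same slides as those of the triple mutant, so these genotypes can be compared without the more variable hpl-2; his-24 arrays. In the fit over all 8 arrays 0 of the 19 identifiers other than lipl-3 and lips-11 were called between them. Of all genes 3.93% were called (1.27% lower and 2.66% higher). At adjusted p alone (limma) 2 of the 19 passed, against 3864 of all 17086 genes tested. In a fit without the 2 hpl-2; his-24 arrays, chosen after seeing the data, 2 of the 19 were called and 4.06% of all genes. These were lips-13 and lips-15, both higher in the triple mutant. lips-13 was not well above background in hpl-1; hpl-2 and was at least 2.42-fold higher (adjusted p = 0.00037). lips-15 had entered the test only through the hpl-2; his-24 arrays, which this fit left out. It was well above background on 1 of these 4 arrays, a triple mutant array, so its call is not read as a difference and no fold is given. In the same fit lips-3, lips-6, lips-7 and lips-9 were higher in the triple mutant at differences below the fold threshold. lips-9 differed by 1.23 ± 0.10 (adjusted p = 0.000286), C09E8.2a by 1.44 ± 0.08 (adjusted p = 8.65e-05), C09E8.2b by 1.21 ± 0.10 (adjusted p = 0.000354), and lips-3 by 0.92 ± 0.10 (adjusted p = 0.00127). lips-6, again not above background in hpl-1; hpl-2 animals, was at least 1.52-fold higher (adjusted p = 0.00135). With all 8 arrays none of these 5 identifiers passed (adjusted p = 0.174 to 0.354). Other identifiers also passed on p alone (limma) without the hpl-2; his-24 arrays. lips-14 was higher in the triple mutant by 0.42 (adjusted p = 0.0116). The differences went the other way for lipl-1 (-1.02, adjusted p = 0.000423), lips-10 (-0.74, adjusted p = 0.0107), lips-16 (-0.43, adjusted p = 0.0093) and lips-1 (-0.46, adjusted p = 0.0491).

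The fit without hpl-2; his-24 also added calls between hpl-1 his-24 and hpl-1; hpl-2, giving 6 of the 19 identifiers other than lipl-3 and lips-11, where 8.38% of all genes were called. lips-7 fell by 1.95 ± 0.08 with C09E8.2a (adjusted p = 1.31e-05) and 1.95 ± 0.10 with C09E8.2b (adjusted p = 2.51e-05). For lips-6, which was above background in hpl-1 his-24 and not in hpl-1; hpl-2 animals, hpl-1 his-24 was at least 3.21-fold higher (adjusted p = 7.13e-05). With all 8 arrays these 3 identifiers had adjusted p = 0.17, 0.131 and 0.0785, respectively.

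Between hpl-1; hpl-2 and hpl-2; his-24 1 of the 19 identifiers other than lipl-3 and lips-11 was called, lips-13, which was higher in the latter. Of all genes 8.02% were called, 5.56% lower and 2.46% higher in hpl-2; his-24. Over all 21 identifiers the calls were 1 lower and 2 higher, with quantile normalization 1 lower and 4 higher, and with the deposited log2 values 0 lower and 2 higher. Between hpl-2; his-24 and the triple mutant 4 of the 19 were called, lips-7 with both probes and lips-9, higher in the latter, and lips-13, lower there, with no lipl- gene among them. Of all genes 10.9% were called, 9.39% higher and 1.49% lower in the triple mutant. The lipl- genes differed there by -0.33 to 1.27 on the log2 scale, lipl-2 being higher in the triple mutant by 1.27 ± 0.32 (adjusted p = 0.016). The lips- identifiers called in no comparison were lips-1, lips-3, lips-6, lips-10, lips-14, lips-15, lips-16 and lips-17. Among them lips-16 had a lower level in the triple mutant compared with hpl-1 his-24, by a log2 difference of -0.78 ± 0.10 (adjusted p = 0.00128), with levels of -1.62 and -1.55 in hpl-1 his-24, -1.94 and -1.93 in hpl-1; hpl-2 animals, -2.18 and -2.34 in hpl-2; his-24, and -2.33 and -2.39 in the triple mutant.

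Genes of the other routes are given by their counts. Of 5 genes of the cytosolic route (atgl-1, the hormone-sensitive lipase homologue hosl-1, lid-1, abhd-5.2 and the perilipin homologue plin-1), 0 were called in any of the 6 comparisons, where 3.93% to 16.5% of all genes were called, so a count of 0 is near the background. At adjusted p alone, 0 to 4 of them passed per comparison, where 3864 to 11216 of all 17086 genes tested passed. atgl-1 differed from hpl-1 his-24 by -0.13 ± 0.11 in the triple mutant (adjusted p = 0.358) and by 0.49 ± 0.11 in hpl-2; his-24 animals (adjusted p = 0.00756), whereas the lipl- genes were lower there.

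Of 7 genes that regulate the lysosomal route or carry its signal, lbp-8 and mxl-3 were called and hlh-30, pha-4, daf-16, nhr-49 and nhr-80 were not. Per comparison, 3.93% to 16.5% of all genes were called. lbp-8 was at -4.11 and -3.77 in hpl-1 his-24 and -4.41 and -4.18 in hpl-1; hpl-2 animals, and was not well above background in hpl-2; his-24 or the triple mutant. It was at least 19.4-fold and 9.13-fold higher in hpl-1 his-24 than in those 2 genotypes (adjusted p = 1.72e-05 and 0.000108), and at least 15.2-fold and 7.14-fold higher in hpl-1; hpl-2 than there (adjusted p = 7.77e-05 and 0.000356). The 2 genotypes with lbp-8 not above background had the lowest means of lipl-1, lipl-3 and lipl-5. The other tested lipl- genes did not follow this. The mean of hpl-1; hpl-2 animals was below that of the triple mutant for lipl-2 and lipl-6, and below that of hpl-2; his-24 for lipl-4. mxl-3 was at 0.80 and 0.93 in hpl-1 his-24, 0.41 and 0.58 in hpl-1; hpl-2 animals, -0.55 and -0.03 in hpl-2; his-24, and -1.10 and -1.19 in the triple mutant. This repressor of lipl- genes was thus lowest in the triple mutant, by 2.02 ± 0.18 against hpl-1 his-24 (adjusted p = 0.000296) and 1.65 ± 0.18 against hpl-1; hpl-2 (adjusted p = 0.00149). The hlh-30 probe was above background on 5 of the 8 arrays.

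Of 26 further lysosomal genes, 1 was called higher and 1 lower in hpl-1; hpl-2 than in hpl-1 his-24, 4 lower in hpl-2; his-24 and 3 lower in the triple mutant. Of all genes tested, 3.25%, 9.72% and 2.62% were called lower in these comparisons and 4.92%, 6.82% and 5.59% higher. The counts in hpl-1; hpl-2 are near these shares, whereas the lower counts in hpl-2; his-24 and the triple mutant exceed them. The list was not tested as a set. The acid ceramidase homologue asah-1 fell by 2.96 ± 0.19 in hpl-2; his-24 animals (adjusted p = 4.18e-05) and by 2.13 ± 0.19 in the triple mutant (adjusted p = 0.000299). The DNase II homologue nuc-1 fell by 2.23 ± 0.12 in the triple mutant (adjusted p = 5e-05). The 1 gene called higher, gba-2, was at -4.78 and -4.75 in hpl-1 his-24 and at -2.20 and -2.37 in hpl-1; hpl-2 animals. gba-4, the 1 called lower in hpl-1; hpl-2, was at 1.73 and 1.68 in hpl-1 his-24, -0.26 and -0.16 in hpl-1; hpl-2 animals, and -1.24 and -1.42 in hpl-2; his-24. The list's median log2 fold change was between -0.38 and -0.05 in the comparisons with hpl-1 his-24. For the lipl- genes other than lipl-3 the medians were between -1.91 and -1.31.

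Intestinal markers also moved with the genotypes. The signals of elt-2, elt-7, ges-1, act-5 and ifb-2, all above background on all 8 arrays, were summed before the log2 was taken. The brightest genes, act-5 and ifb-2, therefore weigh most in the sum. Its log2 was 5.61 and 5.58 in hpl-1 his-24, 5.004 and 5.046 in hpl-1; hpl-2 animals, 4.23 and 4.58 in hpl-2; his-24, and 4.52 and 4.57 in the triple mutant. The median log2 fold changes of the 5 markers against hpl-1 his-24 were -0.63, -0.94 and -0.86, respectively. At adjusted p alone 5, 4 and 4 of them passed, against 6661, 11216 and 7178 of all 17086 genes tested. The 5 that passed in hpl-1; hpl-2 animals include elt-2, which was higher there. Its level was -0.08 and -0.03 in hpl-1; hpl-2 animals and -0.32 and -0.30 in hpl-1 his-24. ifb-2 was the only one called, in hpl-2; his-24 animals (-2.05 ± 0.12, adjusted p = 3.59e-05), and elt-2, which encodes the main intestinal GATA factor, differed by -0.04 there and in the triple mutant. Of 5 sperm genes, 3 (spe-11, spe-38 and fer-1) were called lower in hpl-2; his-24 than in the triple mutant, and the first 2 also lower than in hpl-1 his-24, whereas spe-41 was 1.11 ± 0.11 higher in hpl-2; his-24 than there (adjusted p = 0.00024). Of all genes, 9.39% were called lower in hpl-2; his-24 than in the triple mutant and 9.72% lower than in hpl-1 his-24. The log2 of the summed signals of the 5 sperm genes, weighted to the brightest of them, was 0.59 and 0.47 in hpl-1 his-24, 0.78 and 0.84 in hpl-1; hpl-2 animals, 0.85 and 0.54 in hpl-2; his-24, and 1.35 and 1.28 in the triple mutant. Of the 6 yolk genes, made in the adult intestine, vit-3 was called higher in hpl-2; his-24 than in the triple mutant. Of all genes 1.49% were called in that direction. At adjusted p alone 5 of the 6 yolk genes passed there, against 8705 of all 17086 genes tested. The log2 of the summed signals of the 6 yolk genes was 8.59 and 8.36 in hpl-1 his-24, 7.89 and 8.24 in hpl-1; hpl-2 animals, 8.51 and 8.62 in hpl-2; his-24, and 7.82 and 7.47 in the triple mutant. The part of intestinal RNA content or of germline and developmental stage in the lipase levels was not tested.

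**Figure D4:**
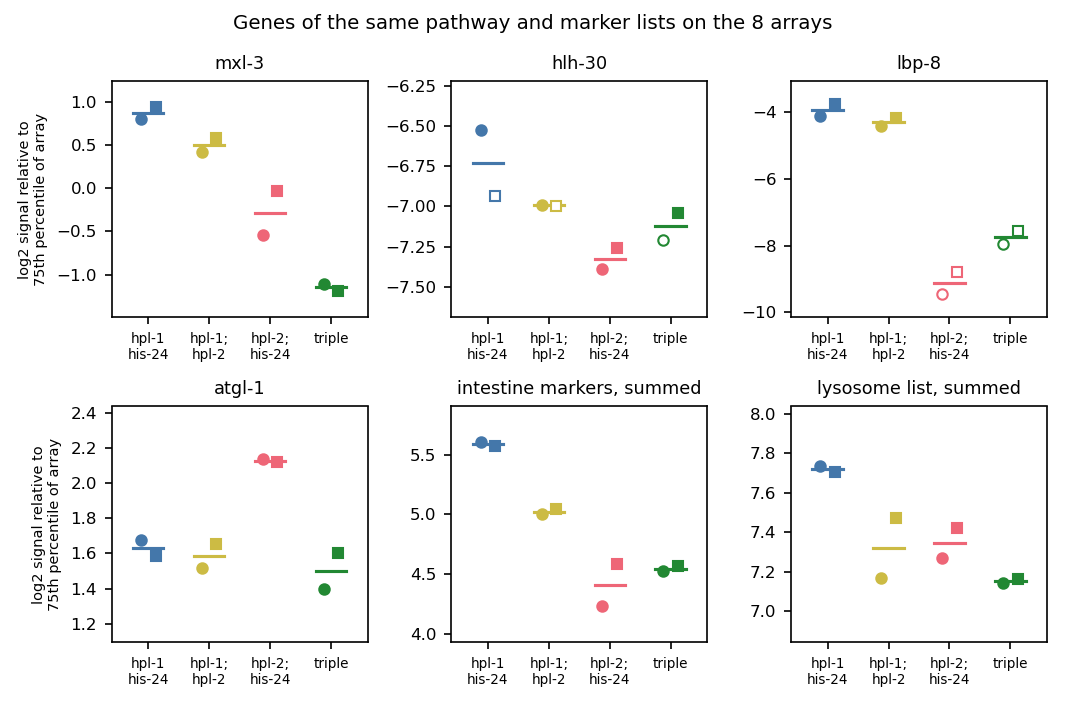
Log2 level relative to the array's 75th percentile (vertical axis, scaled to each panel) of mxl-3, hlh-30, lbp-8 and atgl-1, and log2 of the summed signals of the 5 intestine markers and of the 26 lysosomal genes. Symbols are as for the lipase genes, open where a probe was not well above background. lbp-8 is open in hpl-2; his-24 and the triple mutant, and the log2 of the summed intestine signals runs from 5.61 in hpl-1 his-24 to 4.23 in hpl-2; his-24.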

How the data were processed

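Spot intensity values, deposited without normalization between arrays, came from Agilent Feature Extraction 9.5.3.1 as the authors ran it, with the background already subtracted. A table of log2 values, quantile-normalized and without background subtraction, was also deposited by the authors and served as an alternative; 0 of its sample columns were left unused. The probes' genome build was not given in the sources used here, so chromosomes and gene order were taken, without coordinates, from RefSeq's WBcel235 gene table, which matched symbols to 18124 of 19441 genes.

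Log2 signals were set relative to each array's 75th percentile over non-control spots. Outlier spots were left out, spots of a probe averaged, and the brightest probe kept per identifier. An identifier was tested if its probe was well above background (at least 50% of spots) on both arrays of a genotype, which left 17086 of 20113. A fold against a genotype not above background on either array is a lower bound, taken against the higher of its level and the lowest level above background on each array. Genotype means were fitted with limma 3.58.1 (R 4.3.3) over all 8 arrays, with 4 residual and 2.43 prior degrees of freedom, and 6 pairs were compared two-sided. An exact permutation test of 2 against 2 arrays cannot go below p = 0.333. The code was tested on simulated arrays with 200 changed genes. The 75th percentile lay between 4613 and 8501 intensity units, background between 48 and 56.5, and 77.3% to 84.7% of probes were above background. The lowest level above background was -8.15 and -8.28 on the hpl-2; his-24 arrays and between -7.15 and -6.39 on the others. The lipl-7, lipl-8 and lips-2 probes, above background nowhere, also had their lowest means in hpl-2; his-24. The part of this lower floor in differences of dim probes from that genotype was not tested. The number of arrays limits the precision, which was lower in hpl-2; his-24. The labels call the 2 samples of a genotype replicates and the study calls them biological; p-values measure the spread between them.

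The members and gene lists were chosen with earlier results of these data known. All members called in a comparison are given with all 8 values, together with lips-16, and in the other lists only called genes. lips-1, lips-3, lips-6, lips-10, lips-14, lips-15, lipl-6, atgl-1, elt-2 and hlh-30 were named after their values were seen. Alternatives were quantile normalization, normexp background correction (offset 50), filters on dim probes, the deposited log2 table, mean probes, adjusted p alone, slide and replicate blocks, fewer arrays, and leaving out each array. Plots used Python 3.11.15, pandas 2.3.3 and matplotlib 3.10.9. Marker lists of oocyte and eggshell, adult cuticle, epidermis, body wall muscle and neurons were above background on all 8 arrays and held 0, 0, 1, 0 and 0 calls over the 6 comparisons, the 1 being dpy-7, lower in hpl-2; his-24 than in hpl-1 his-24.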

Additional observations from a re-analysis of the deposited data

How the results depend on the processing

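No called fold change turned its direction under any alternative tried. Of the differences that were not called, 8 turned when a hpl-2; his-24 array was left out, among them lips-6 (1.19 to -0.50 without replicate 1) and lipl-4 (-0.33 to 0.15 without replicate 2) in the triple mutant against it. Between hpl-1; hpl-2 animals and the triple mutant, 2 lipase identifiers were called, and 4 at adjusted p alone, in the 4 arrays with slide as a block, in the 4 arrays without it, in 6 arrays without hpl-2; his-24, and in a crossed replicate block chosen after seeing the data. The median there, 0.28, was 0.16 with normexp, 0.26 without a filter, -0.10 with probes above background on all 8 arrays, and 0.14 in the deposited log2 table. Between the triple mutant and hpl-1 his-24, 6 calls became 11 at adjusted p alone, and the median of -0.74 became -0.82 with quantile normalization and -0.51 without a filter. Between hpl-2; his-24 and the triple mutant, 5 calls became 3 with probes above background on all 8 arrays and 13 at adjusted p alone, and the median of 0.47 became 0.0483 in the deposited table. Between hpl-1 his-24 and hpl-1; hpl-2, 5 calls became 10 at adjusted p alone and 8 in 6 arrays, and the median of -1.01 became -1.09 with quantile normalization and -0.91 in the deposited table. Between hpl-2; his-24 and hpl-1 his-24, the median of -1.79 became -1.25 with normexp and -1.15 in the deposited table. Between hpl-1; hpl-2 and hpl-2; his-24, 3 calls became 5 with quantile normalization and 12 at adjusted p alone. Of all 17086 genes tested, 3864, 7178, 8705, 6661 and 8806 passed at adjusted p alone in the comparisons given that count here, in the same order. More probes pass without the fold threshold by construction, and the other causes were not tested. In the comparisons with hpl-2; his-24, the median of all genes moved without a filter, by 0.11 for the triple mutant against it, by -0.16 against hpl-1 his-24 and by -0.11 against hpl-1; hpl-2, and with quantile normalization by -0.10 for the triple mutant.

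Leaving out 1 array gave 1 to 4 calls and medians of 0.18 to 0.38 between hpl-1; hpl-2 animals and the triple mutant, 6 to 7 and -0.81 to -0.60 between that mutant and hpl-1 his-24, and 1 to 8 and -0.0178 to 0.57 between it and hpl-2; his-24. It gave 5 to 8 and -1.119 to -0.998 between hpl-1 his-24 and hpl-1; hpl-2, 10 to 14 and -1.89 to -1.10 between hpl-2; his-24 and hpl-1 his-24, and 3 to 7 and -0.73 to -0.27 between hpl-1; hpl-2 and hpl-2; his-24. In the deposited table the differences from hpl-1 his-24 in hpl-2; his-24 were short of the fold threshold for lipl-4 (-1.46), lips-5 (-1.29) and lips-8 (-1.26). The shared replicate numbers do not pair the samples, since the deviations of same-numbered arrays correlated at -0.30 to 0.18, and with a replicate block the calls were 2, 6, 5, 5, 12 and 3, as without it. The crossed replicate block gave 6 calls between the triple mutant and hpl-1 his-24. Differences of the dim probes lips-6, lips-13 and lips-15 that passed without the hpl-2; his-24 arrays did not pass with them, and lips-15 was in the test only through those arrays.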
